A study of Homo sapiens with 12 samples.

Results

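Of the 77618 autosomal accessible regions in the DU-145 table, 1882 (2.42%) had a peak in all 3 vehicle libraries and in none of the 3 doxycycline (DOX) libraries. These lost regions were chosen by the peak calls of the same 6 libraries, so that every DU-145 value given for them describes the selection and was not tested. The cells were DU-145, a line from castration-resistant prostate cancer (CRPC), and BT-549, a line from triple-negative breast cancer (TNBC), both human, and both carry a puromycin-selected pLKO-tet-puro vector with an inducible MUC1 short hairpin RNA (tet-MUC1shRNA). The 4 groups were DU-145 vehicle, DU-145 DOX, BT-549 vehicle and BT-549 DOX, with 7 days of treatment, 0.1% DMSO as the vehicle and 3 libraries of 50000 cells in each. One label field calls the vehicle cells untreated and another gives DMSO. BT-549 medium also held insulin. Cells with a control hairpin and RNA were not analysed here, and an effect of DOX itself cannot be told apart from that of the hairpin.

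In ATAC-seq, Tn5 transposase cuts DNA that is free of nucleosomes, and a peak marks promoters, enhancers and other elements to which transcription factors bind. Distal elements of this kind differ more between cell types than promoters do, because they are opened by the lineage factors and signal-dependent factors that a cell expresses. NKX proteins are a family of homeodomain factors that recognise an ACTT core. FOX, GATA and RUNX factors open enhancers in many epithelia. AP-1, the dimer of JUN and FOS proteins, binds the palindrome TGANTCA at growth-responsive enhancers, and MUC1-C, the subunit that the hairpin silences, has been studied as a partner of JUN.

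The bases at 12 lost regions are shown because the share of regions with an NKX or an AP-1 word differed between lost, gained and kept regions. Each run is 200 bases of the forward strand of hg38, centred on the 100-bp bin with the highest coverage of the region. Capitals mark matches on either strand to short words. NKX was read as CACTTGA and also as CACTTAA. AP-1 was read as TGANTCA. FOX was read as TGTTTAC and also as TATTTAC. The GATA word was AGATAA and the RUNX word was TGTGGTT. The 6 regions below hold at least 1 NKX word. MECOM and CNDP2 came from the rule for named promoters, and the other 4 were taken for their NKX word after the values were seen.
MECOM (chr3:169268351-169268550): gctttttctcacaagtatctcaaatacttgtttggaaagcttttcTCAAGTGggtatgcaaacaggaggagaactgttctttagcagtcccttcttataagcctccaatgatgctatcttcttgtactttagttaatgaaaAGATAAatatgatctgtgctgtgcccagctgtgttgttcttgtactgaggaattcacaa
CNDP2 (chr18:74498751-74498950): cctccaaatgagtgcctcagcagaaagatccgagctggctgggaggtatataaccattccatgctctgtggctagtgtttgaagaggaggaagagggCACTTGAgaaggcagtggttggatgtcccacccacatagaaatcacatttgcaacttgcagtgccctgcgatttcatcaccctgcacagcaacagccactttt
LNX1 (chr4:53627751-53627950): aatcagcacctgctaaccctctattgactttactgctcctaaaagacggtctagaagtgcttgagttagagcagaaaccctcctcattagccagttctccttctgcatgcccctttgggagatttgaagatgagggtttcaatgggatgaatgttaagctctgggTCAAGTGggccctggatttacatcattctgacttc
IL20RB and IL20RB-AS1 (chr3:136982651-136982850): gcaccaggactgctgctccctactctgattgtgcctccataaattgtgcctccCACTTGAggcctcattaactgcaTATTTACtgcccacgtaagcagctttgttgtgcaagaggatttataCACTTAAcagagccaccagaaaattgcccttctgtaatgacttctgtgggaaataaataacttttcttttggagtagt
near DLGAP1 (chr18:3667351-3667550): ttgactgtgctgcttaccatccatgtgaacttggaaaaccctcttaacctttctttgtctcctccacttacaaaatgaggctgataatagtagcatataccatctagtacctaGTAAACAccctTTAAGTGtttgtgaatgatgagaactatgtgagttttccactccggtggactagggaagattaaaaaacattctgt
CHCHD3 (chr7:133070651-133070850): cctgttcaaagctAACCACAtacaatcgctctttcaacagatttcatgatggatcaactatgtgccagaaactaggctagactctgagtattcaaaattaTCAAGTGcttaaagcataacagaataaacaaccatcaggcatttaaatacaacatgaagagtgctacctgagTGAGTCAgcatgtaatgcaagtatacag

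The 6 regions that follow were named for the highest vehicle coverage, the largest fitted fall or the change in BT-549. None of them holds an NKX word in these bases, and 3 hold none of the 5 motifs. The only AP-1 match in these bases lies at the TMEM232 region, which was also accessible in BT-549 vehicle cells. The WLS region, with none of the 5 motifs in these bases, was accessible there too. In the wider windows used for the shares below, the region near ACAA2 also held an AP-1 word, and it had no BT-549 peak.
PIWIL4 (chr11:94588451-94588650): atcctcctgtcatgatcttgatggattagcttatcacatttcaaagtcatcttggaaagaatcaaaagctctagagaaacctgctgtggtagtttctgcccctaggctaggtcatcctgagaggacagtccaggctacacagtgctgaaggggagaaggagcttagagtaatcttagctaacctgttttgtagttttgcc
near ACAA2 (chr18:49747951-49748150): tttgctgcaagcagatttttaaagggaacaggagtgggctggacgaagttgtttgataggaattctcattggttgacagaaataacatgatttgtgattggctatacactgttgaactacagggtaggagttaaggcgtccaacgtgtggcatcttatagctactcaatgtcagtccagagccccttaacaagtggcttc
near GALNT3 (chr2:165825151-165825350): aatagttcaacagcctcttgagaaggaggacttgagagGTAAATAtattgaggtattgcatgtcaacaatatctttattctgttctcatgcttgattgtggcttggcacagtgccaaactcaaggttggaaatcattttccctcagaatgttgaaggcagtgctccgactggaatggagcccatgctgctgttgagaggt
near PDHX (chr11:35045551-35045750): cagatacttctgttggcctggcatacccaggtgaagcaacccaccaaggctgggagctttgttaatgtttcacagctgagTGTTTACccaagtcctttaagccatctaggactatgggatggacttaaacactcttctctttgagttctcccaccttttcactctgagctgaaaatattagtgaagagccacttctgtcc
TMEM232 (chr5:110262751-110262950): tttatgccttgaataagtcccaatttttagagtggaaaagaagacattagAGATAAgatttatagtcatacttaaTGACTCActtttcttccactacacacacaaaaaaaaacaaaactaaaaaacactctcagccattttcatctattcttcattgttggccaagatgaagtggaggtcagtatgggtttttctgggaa
WLS (chr1:68214951-68215150): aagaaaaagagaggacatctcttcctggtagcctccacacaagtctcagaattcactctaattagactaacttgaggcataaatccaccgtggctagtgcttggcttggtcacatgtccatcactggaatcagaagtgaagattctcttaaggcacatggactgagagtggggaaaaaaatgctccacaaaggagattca

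The marker genes of the cells were read at their promoters. All 6 epithelial genes (EPCAM, CDH1, KRT8, KRT18, KRT19 and KRT7) had a promoter peak in each DU-145 library, and 5 of them also had one in at least 1 BT-549 library. Of 6 mesenchymal genes, CDH2 and TWIST1 had a peak in each BT-549 and in no DU-145 library, and VIM, ZEB1, FN1 and SNAI2 had one in all 12 libraries. Among genes of other cell types, CD3E and ALB had none in any library, PTPRC had one in 3 DU-145 DOX and 2 BT-549 vehicle libraries, and APOA1 had one in 2 DU-145 vehicle and 3 DU-145 DOX libraries. The promoter of MUC1 had a peak in every library, which does not measure its silencing, and no lost region was nearest to MUC1.

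A region entered the DU-145 table if it had been detected in at least 3 libraries, and the lost regions are those detected in the vehicle libraries alone. The reverse class, with a peak in 0 of 3 vehicle and 3 of 3 DOX libraries, held 8317 gained regions (10.7% of the autosomal regions), and 45174 regions (58.2%) were kept in all 6 libraries. Just inside the threshold, the weakest vehicle peak of a lost region had a -log10 q-value between 1.83 and 117, with a median of 9.31. Just outside it, 1382 regions had 3 vehicle peaks and 1 DOX peak, with a median -log10 q-value of 6.04 for that DOX peak. Median normalized vehicle coverage was 15.6 in the lost regions and 14.3 in that next class, and median DOX coverage was 3.06 and 6.15. The rule therefore cut through a continuum, in which the median fitted log2 fold change was -2.34 with 0 DOX peaks, -1.13 with 1, -0.56 with 2 and -0.16 with 3.

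Normalized coverage is the average fragment depth in the highest bin after scaling to equal effective library size. In the lost regions its median was 15.8, 15.1 and 16.2 in vehicle replicates 1 to 3. It was 3.20, 2.95 and 3.11 in DOX replicates 1 to 3. The medians within each condition lay close together, and those of the vehicle libraries were several-fold higher. The kept regions had medians between 39.1 and 39.3 with vehicle and between 40.5 and 41.3 with DOX. Lost regions were thus lower than kept regions in vehicle cells, and their median of 15.6 lay nearer to the 18.1 of all autosomal regions. Only 580 of the 1882 reached a mean vehicle coverage of 20, and 42 reached 50. The median fold enrichment of their vehicle peaks over local background was 7.98 to 9.77 per library, against 18.2 to 23.6 for kept regions. Bin coverage summed over the regions of the table was 16337380 to 25232000 in the DOX libraries, against 12370094 to 24001285 with vehicle. The DOX libraries had 87702 to 95487 peaks, against 63271 to 83605 with vehicle. The part of depth in the lost peaks was not tested.

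**Figure D1:**
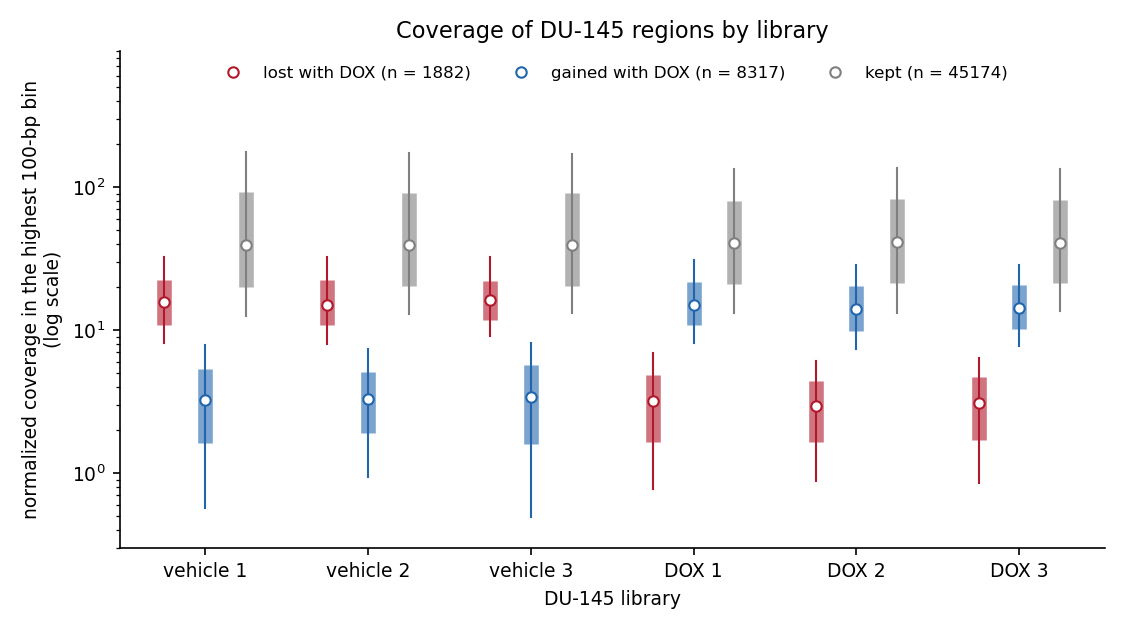
Normalized coverage in the highest 100-bp bin (log scale) of lost, gained and kept DU-145 regions in each library. Circles are medians, thick bars the 25th to 75th percentiles and thin lines the 10th to 90th. Lost regions had medians of 15.1 to 16.2 in the vehicle and 2.95 to 3.20 in the DOX libraries, whereas kept regions lay near 40 in all 6.

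In the fit across all 79177 regions of the table, 1767 lost regions had a DOX value at least 2-fold lower, 1201 at least 4-fold lower and 159 at least 16-fold lower. The background for the first count is 7.13% of all regions tested. At the cutoffs of the study for this line (2-fold and an edgeR adjusted p under 1e-05) 1134 were called, against 4.61% of all regions. In 1824 of the 1882 every DOX library lay below every vehicle library, a pattern found in 27.0% of all regions. The selection on the same libraries sets these 3 counts, and nothing is read from them. A further 112 lost regions were lower by less than 2-fold, and 3 were slightly higher with DOX although no DOX peak had been called there. Coverage did not vanish at most lost regions, and mean DOX coverage was under 1 in 113 of them.

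The lost region with the highest vehicle coverage lay 2599 bp from a transcription start site (TSS) of PTK2B, which encodes the focal adhesion-related kinase PYK2, at chr8:27399701-27400900. Its normalized coverage was 91.8, 114 and 108 in the vehicle libraries and 6.81, 2.69 and 5.28 in the DOX libraries. The conditions were far apart, with a fitted log2 fold change of -4.48 ± 0.23 (SE).

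An intron of TNXB, the gene of the matrix protein tenascin-X, held the next region (chr6:32092701-32093500). Coverage there was 69.3, 104 and 102 with vehicle and 3.76, 2.72 and 5.60 with DOX. In an intron of PIWIL4, a PIWI gene of the small-RNA pathway, it was 104, 87.2 and 80.4 with vehicle and 2.84, 6.92 and 3.75 with DOX. All 3 of these regions were without a peak in any BT-549 library.

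The other regions of this kind lay between ACAA2 and its neighbours, in SLIT3, near CLINT1, at MFAP3L and by LNX1. In the intron of SLIT3, which encodes a secreted ligand of ROBO guidance receptors, vehicle coverage was 84.2, 82.6 and 69.2 and DOX coverage 6.84, 3.07 and 4.37. Upstream of LNX1, the gene of a ubiquitin ligase that acts on NUMB, it was 72.0, 76.1 and 65.2 with vehicle and 1.60, 1.76 and 3.05 with DOX. Of the 8 regions with the highest vehicle coverage, only that near CLINT1 had BT-549 peaks, in 3 of 3 vehicle and 0 of 3 DOX libraries. Its BT-549 coverage was low in both conditions, and the difference did not pass the test (log2 fold change 0.06 ± 0.57, edgeR adjusted p = 0.960).

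The largest fitted differences among regions with vehicle coverage of at least 20 were found mostly at distal elements whose DOX coverage was close to 0. The strongest lay 30592 bp from the TSS of GALNT3, whose product starts mucin-type O-glycosylation, in an intron of a noncoding gene (chr2:165824901-165825500). Coverage was 48.7, 52.2 and 44.1 with vehicle and 1.26, 0.0750 and 0.341 with DOX, and the fitted log2 fold change was -6.89 ± 0.43. Next in order came a region 67867 bp from PDHX, a component of the pyruvate dehydrogenase complex, with 58.1, 44.9 and 39.2 against 0.665, 0 and 0.443. With DOX coverage this low, the fitted values depend on a few fragments and are steep but of uncertain size.

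Within IL20RB, a receptor subunit for interleukins of the IL-20 group, a region 555 bp from the antisense transcript IL20RB-AS1 held coverage of 48.4, 45.3 and 53.9 with vehicle and 0.472, 0.720 and 1.80 with DOX. This is the sequence above with 2 NKX words and a FOX word. An intron of PVT1, the noncoding neighbour of MYC, held 31.6, 36.3 and 34.9 with vehicle and 0.0322, 1.02 and 1.26 with DOX. The remaining regions of this group lay near GUCA2B, SHLD1, DLGAP1 and CPSF6, with fitted log2 fold changes of -5.93 to -5.58. None of the 8 had a BT-549 peak.

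Lost regions were narrow. Their median length was 400 bp (300 to 1400 bp), against 1000 bp for kept and 400 bp for gained regions. The bounds of 1863 of them lay within 100 bp of the overlap of the 3 vehicle peaks, so that their width partly follows from the rule, which leaves only regions defined by 3 libraries. The rule left out every region that overlaps a DOX peak, so that some separation from DOX peaks was set in advance. The median distance from a lost region to the nearest peak of any DOX library was 4931 bp, and 131 (6.96%) had a DOX peak within 500 bp of their edge.

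Most lost regions were distal. The median distance from the highest bin to the nearest TSS of any annotated transcript was 9586 bp, against 3392 bp for kept and 11225 bp for gained regions. For protein-coding transcripts it was 29458 bp, against 11538 and 38058 bp. Within 1 kb of a TSS lay 170 lost regions (9.03%, Wilson 95% interval 7.82% to 10.4%), against 37.0% of kept regions and 26.2% of all autosomal regions. By annotation, 938 (49.8%) were in introns, 480 (25.5%) intergenic and 413 (21.9%) within 3 kb of a TSS. Among kept regions the same classes held 30.1%, 19.6% and 48.2%. Lost and gained regions were alike in position, and both stood apart from the kept regions through the lack of promoters.

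**Figure D2:**
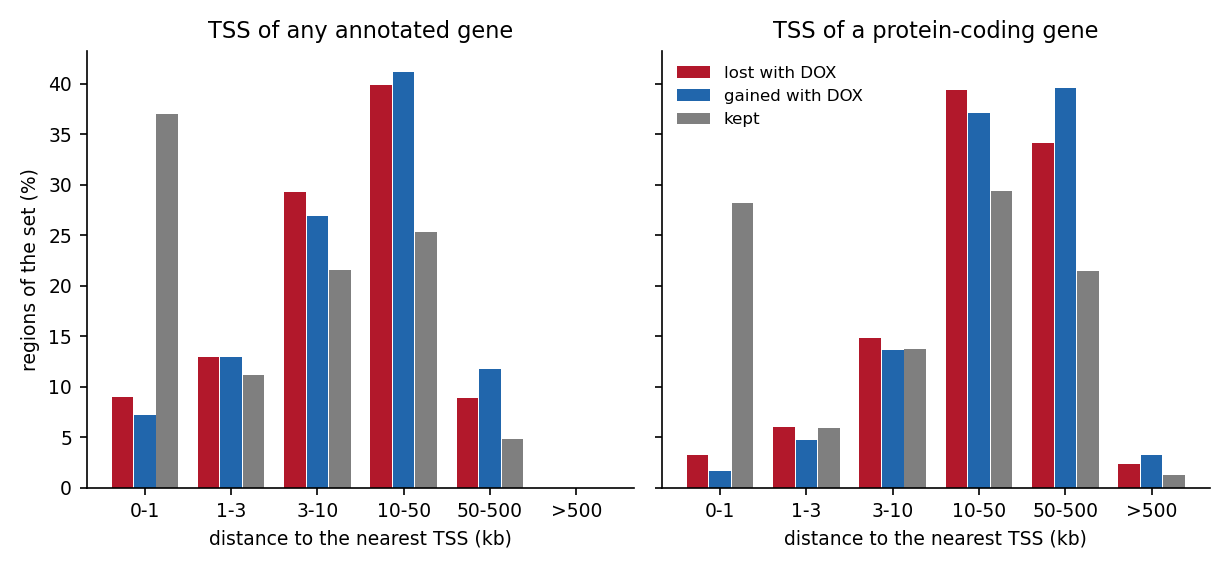
Share of lost, gained and kept DU-145 regions (%) by distance of the highest bin to the nearest TSS (kb), for all annotated genes on the left and protein-coding genes on the right. Within 1 kb of any TSS lay 9.03% of lost, 7.18% of gained and 37.0% of kept regions, and the 10 to 50 kb class was the largest for lost regions in both panels.

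The bases around lost regions were poorer in G and C than those of kept regions, with a median of 44% in 300-base windows against 52.3%, and held a median of 2 CpG dinucleotides against 5. Gained regions were at 43.0% and also 2. Across chromosomes the share of regions that were lost ranged from 0.700% on chromosome 19, the most gene-dense, to 3.18% on chromosome 4, and every autosome held at least 15.

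Only 62 lost regions lay within 1 kb of a protein-coding TSS. The highest vehicle coverage among them was at MECOM, which encodes the zinc-finger factor EVI1, 787 bp from a start site (chr3:169268101-169268800). Coverage was 35.2, 44.7 and 36.8 in the vehicle libraries and 1.85, 0.578 and 0 in the DOX libraries. The fitted log2 fold change was -5.32 ± 0.39, and the region had no BT-549 peak.

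The other promoters of this group kept more coverage with DOX. At CNDP2, the gene of a cytosolic dipeptidase, coverage was 31.2, 31.0 and 25.2 with vehicle and 4.97, 6.25 and 4.87 with DOX. At SYNPO, which encodes the actin-associated protein synaptopodin, the bin was 7 bp from a start site, and coverage was 25.5, 25.9 and 26.5 against 5.87, 5.69 and 6.50. IFRD1, OR56B1, SSPN, CYP4B1 and CHCHD3 had fitted log2 fold changes between -2.85 and -2.35. In all 8 promoters each DOX library lay below each vehicle library.

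The widest lost regions included a promoter of NR4A1, an orphan nuclear receptor that is an immediate early gene (chr12:52056001-52057300, 1300 bp). Coverage was 14.9, 18.1 and 18.7 with vehicle and 1.34, 3.0 and 2.22 with DOX. A region of 1300 bp lay in an intron of MIR4435-2HG, 63275 bp from BCL2L11, the gene of the proapoptotic protein BIM, with 30.8, 29.7 and 35.4 against 1.57, 3.06 and 1.14. The widest, at 1400 bp, lay 30870 bp from PPARA, a nuclear receptor of fatty acid oxidation, and 5965 bp from the microRNA gene MIRLET7B. It held coverage of 16, 7.26 and 16.2 with vehicle and 3.92, 2.24 and 2.92 with DOX.

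This widest region overlapped a BT-549 region that was called lower, read at a bin outside the lost region. BT-549 coverage was 37.4, 39.3 and 36.5 with vehicle and 8.46, 26.3 and 11.4 with DOX (log2 fold change -1.36 ± 0.31, edgeR adjusted p = 0.000370). The groups did not overlap. The call at 0.01 was lost without DOX replicate 1 (edgeR adjusted p = 0.0194), without DOX replicate 3 (0.0218) and with DESeq2 (0.0140).

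The lost regions were spread over many genes. They were nearest to 1569 protein-coding genes, of which 1329 had 1 lost region, 184 had 2 and 56 had 3 or more. For 473 lost regions (25.1%) another lay within 100 kb, and there were 11 chains of at least 4 regions with such gaps. The tightest of these spanned 4400 bp and held 4 regions at NCOA7, which encodes a protein of the oxidative stress response.

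PLPP3 and TLE4 each were nearest to 6 lost regions, AOPEP and PTP4A1 to 5, and ADGRG6 was the first of 7 genes with 4 in alphabetical order. TLE4 encodes a Groucho-type corepressor. Its 6 regions lay 15658 to 405622 bp from the coding TSS, out of 32 regions nearest to this gene. A neighbouring pair was the highest, with coverage of 33.1, 46.2 and 38.4 against 1.55, 2.72 and 0 at chr9:79800001-79800500, and of 37.5, 38.0 and 41.1 against 4.18, 1.10 and 0.605 at chr9:79798501-79799200.

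PLPP3, a phosphatase that degrades lysophosphatidic acid, had its 6 regions 113912 to 547112 bp away, at or within noncoding genes. The 5 regions of PTP4A1, the phosphatase PRL-1, formed a chain of 130900 bp over and around the gene, with fitted log2 fold changes of -3.62 to -1.32. AOPEP, an aminopeptidase gene, had 4 of its regions within the gene. At ADGRG6, an adhesion G protein-coupled receptor, the 4 fitted log2 fold changes were smaller (-2.37 to -0.68). One of its regions had overlapping libraries, with 6.88, 16.4 and 10.1 against 5.08, 5.55 and 11. No nearest gene is shown by these data to be controlled by a region.

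Gene lists were read from the nearest protein-coding gene, and for each the share of lost regions is set beside that of all autosomal regions. Axon guidance genes were nearest to 14 lost regions (0.744%, against 0.609%), with EPHA4, a receptor of ephrins, nearest to 3 and NRP2 to 2. Prostate and NKX lineage factors were nearest to 6 (0.319%, against 0.233%), namely GATA3, EHF, NKX2-1, FOXA2, TMPRSS2 and TP63. An intron of TP63, the factor of basal epithelium, held coverage of 32.0, 35.7 and 41.9 with vehicle and 4.53, 8.60 and 3.54 with DOX. By EHF, an ETS factor of epithelial cells, it was 33.8, 32.2 and 17.9 against 5.92, 4.5 and 3.12.

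Junction and EMT genes were nearest to 5 lost regions (0.266%, against 0.250%), namely CDH2, FN1 and ZEB1. The CDH2 region with the highest vehicle coverage lay 825405 bp from its start site. In ZEB1, a repressor of epithelial genes, coverage was 26.5, 29.5 and 30.3 against 7.43, 4.49 and 3.4. The WNT and TGF-beta list had 11 (0.584%, against 0.638%), among them a region in an intron of ERC2, 201406 bp from WNT5A, with 29.3, 31.0 and 38.5 against 4.53, 1.41 and 2.47. Actin organization genes had 9 (0.478%, against 0.597%), with 43.7, 40.6 and 50.6 against 0, 4.17 and 3.68 in an intron of the unconventional myosin gene MYO10.

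Cell polarity genes had 7 (0.372%, against 0.371%), including VANGL1 and DLG2. Neuroendocrine and pluripotency factors had 3 (0.159%, against 0.231%), with MYC or SOX4 as the nearest gene. The NOTCH list had 2 (0.106%, against 0.189%), near the ligand gene JAG1 and the coactivator gene MAML3. JUN was the only gene of the AP-1 list, with 2 regions (0.106%, against 0.121%). At 30996 bp from its start site coverage was 15.2, 12.8 and 13.0 against 0, 1.87 and 0.213. None lay nearest to a BAF or PBAF subunit gene (0.160% of all regions). The shares of lost and of all regions were close for every list, and no list is singled out by them.

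The genome sequence was not part of the rule, and the shares below are a description with no test. In 300-base windows centred on the highest bin, 470 lost regions (25%) held an NKX word, against 10.7% of all autosomal regions, 11.4% of gained and 9.35% of kept regions. Both words contributed, CACTTGA with 16.5% against 6.76% of all regions and CACTTAA with 9.88% against 4.29%. AP-1 showed the reverse. Its palindrome was held by 344 lost regions (18.3%), against 37.4% of all, 34.5% of kept and 55.8% of gained regions.

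FOX words were held by 19.8% of lost regions (10.4% of all and 12.7% of gained). GATA words were held by 22.9% (13.6% and 18.4%) and RUNX words by 13.2% (8.06% and 9.70%). The ETS word CCGGAAG, a promoter motif, was present in 0.797% against 4.35%, and the CTCF core in 0 of 1882 windows, against 0.307%. TEAD words (GGAATG) were near the background with 19.2% against 21.3%. The ZEB and E-box word CAGGTG was in 19.6% against 26.6%, and the MYC E-box CACGTG in 2.28% against 4.93%. SOX, read as ACAATGG and also as ACAAAGG, was in 11.3% against 8.90%. Lower shares of lost regions, under 5%, held the KLF word CCACACCC (2.55% against 3.48%), the POU octamer ATGCAAAT (1.49% against 1.53%), IRF (4.30% against 3.71%), NF-kB (1.12% against 1.48%), GRE (0.638% against 0.452%), NFI (0.213% against 0.0850%) and HNF1 (0 against 0.0129%). At least 1 of NKX, FOX, GATA and RUNX was present in 1110 lost regions (59.0%), against 34.9% of all and 42.9% of gained regions.

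**Figure D3:**
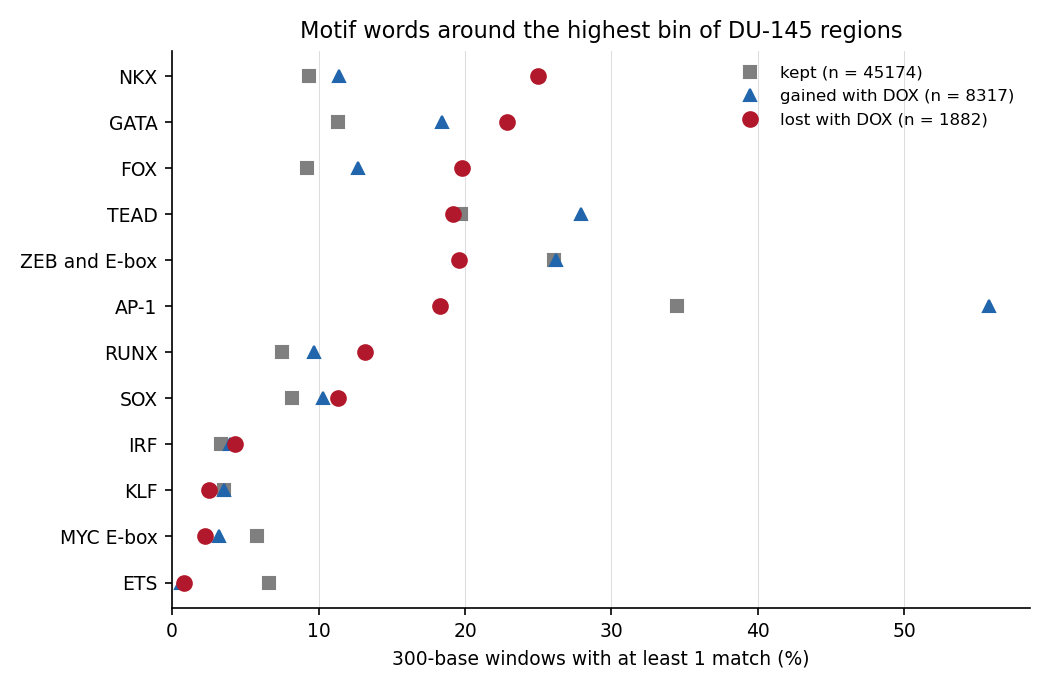
Share of 300-base windows (%) with at least 1 match to each motif, on either strand, in lost, gained and kept DU-145 regions. NKX lay at 25% in lost regions and at 11.4% and 9.35% in gained and kept regions, whereas AP-1 lay at 18.3% in lost and 55.8% in gained regions.

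The shares were also read within like regions. Among windows with 40 to 48% G and C, NKX words were in 26.5% of lost and 14.9% of all regions, and GATA words were in 25.4% and 19.1%. FOX words were in 19.3% and 13.9% of these, RUNX words in 14.6% and 10.7%, and the ETS word in 0.567% and 0.981%. The contrasts for FOX, RUNX and ETS were thus smaller than over all windows. Beyond 3 kb of any TSS the shares were 26% and 12.9% for NKX and 19.3% and 46.2% for AP-1. Within the lost regions, NKX words were held by 21.0% of those with the lowest vehicle coverage, by 26.8% of the middle and by 27.1% of the highest when the regions were divided into 3 equal groups. AP-1 went the other way with 20.9%, 18.2% and 15.8%. The groups were formed from libraries that the rule used, other regions were not divided in this way, and nothing is read from these shares. The median fitted log2 fold change was -2.61 in lost regions with an NKX word and -2.28 in those without, and -1.95 with and -2.44 without an AP-1 word, given as a description of values that the rule used.

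The words were also placed where the accessibility was highest. Within 50 bp of the bin centre an NKX word fell in 5.74% and 6.80% of lost regions per 50-bp interval on either side. At 475 bp from the centre it fell in 2.13% and 2.39%. In gained regions the central intervals had 2.07% and 2.16% and were level with their flanks at 2.01% and 2.07%. AP-1 peaked in all classes, with 4.25% in both central intervals of lost regions, 11.2% and 10.9% in kept regions and 19.2% and 19.7% in gained regions. FOX words rose from 1.97% and 1.65% at the ends to 4.73% and 4.09% at the centre of lost regions, and GATA words lay between 2.76% and 5.15% in all intervals.

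**Figure D4:**
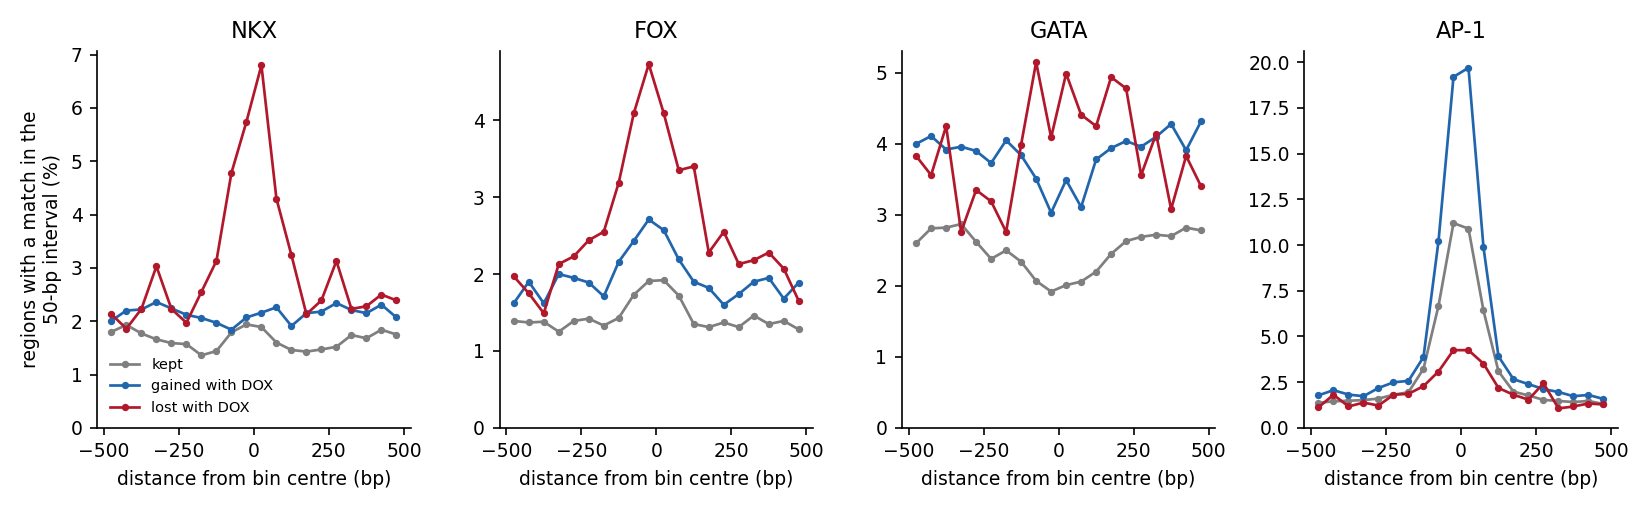
Share of regions (%) with a motif match in each 50-bp interval, by distance from the centre of the highest bin (bp), for lost, gained and kept DU-145 regions. NKX words reached 6.80% at the centre of lost regions and stayed near 2% in gained regions, whereas AP-1 reached 19.7% in gained and 4.25% in lost regions.

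A search without named motifs returned related letters. It used the same regions, was not matched for G and C content and is no separate evidence for the NKX words. All 32896 words of 8 letters were counted in the central 150 bases, both strands together, and 268 of them occurred in at least 38 lost regions. Of the 20 with the highest ratio of shares, 7 held ACTTGA or ACTTAA. GCACTTGA occurred in 2.98% of lost and 0.732% of all regions, and CCACTTGA in 3.67% and 0.975%. The highest ratio of all, 4.28, belonged to AAGGTCAA (3.13% and 0.732%), and AAAGGTCA, the monomeric response element of NR4A receptors, was also among the 20 (3.13% and 1.02%). AGGTCA is the core recognised by many nuclear receptors. Over 300-base windows AAGGTCA was held by 221 lost regions (11.7%), against 5.81% of all, 6.13% of gained and 5.26% of kept regions. The search was made after the named motifs had been seen, and a match does not show that a factor binds.

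Most lost regions were not accessible in BT-549. No BT-549 library had a peak at 1502 of the 1882 (79.8%), against 41.9% of all autosomal DU-145 regions, 73.7% of gained and 28.3% of kept regions. In 359 (19.1%) at least 1 BT-549 vehicle library had a peak, and in 142 (7.55%) all 3 did. Lost regions with an NKX word had a BT-549 vehicle peak in 14.0%, and those without one in 20.8%. Over all autosomal regions the same shares were 40.4% and 59.2%.

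Where a lost region was open in BT-549 vehicle cells, a BT-549 DOX peak was mostly missing. Of the 142 with 3 vehicle peaks, 101 (71.1%) had no DOX peak and 13 (9.15%) had 3. Among all autosomal regions with 3 BT-549 vehicle peaks 26.9% had no DOX peak, and among gained regions, which were as narrow and distal as the lost ones, 48.4% (469 of 969) had none. The BT-549 DOX libraries were shallow, with summed bin coverage of 2502510 to 3267024 against 9142900 to 13606129 with vehicle, and had 30450 to 39837 peaks against 65204 to 93929. The part of this depth in the 71.1% was not tested.

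BT-549 coverage values exist for the 134 lost regions (7.12%) that overlap a region of the BT-549 table, against 39.8% of all autosomal regions. These touch 130 BT-549 regions. Here DOX and vehicle were tested, since the BT-549 libraries played no part in the choice of lost regions. BT-549 peaks did decide which of them could be tested, since a region entered the BT-549 table only if detected in at least 3 libraries. Of the 142 with 3 BT-549 vehicle peaks 101 had no DOX peak, and many thus entered through vehicle peaks alone. The part of this filter in the counts below was not tested. In the edgeR quasi-likelihood test over all 46298 BT-549 regions, at 2-fold and an adjusted p under 0.01, 31 of the 130 were lower with DOX and 1 was higher. Of all BT-549 regions 5.97% were lower and 3.87% higher. The median log2 fold change at the 130 was -0.60, against -0.04 over all regions, and in 55 of them each DOX library lay below each vehicle library, against 21.9% of all.

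The count was also read by position. Of 93 BT-549 regions at lost regions beyond 3 kb of a TSS 24 were called lower (25.8%), against 9.13% of all BT-549 regions at that distance. The median log2 fold change was -0.64 at these 93, against -0.28 over all regions at that distance. In 42 of the 93 each DOX library lay below each vehicle library, against 7018 of 23417. In 101 of the 130 the highest BT-549 bin lay inside the DU-145 region, and 25 of these were called lower. Without BT-549 DOX replicate 1 the count fell from 31 to 18, with 3.82% of all regions called. DESeq2 called 13 of the 93 that it gave an adjusted p, with 2.48% of all regions tested. All 31 kept a negative log2 fold change under both, which was nearly fixed in advance, since both reuse the counts that chose the 31. Replicates of BT-549 DOX differed more than those of any other group, with correlations of log2 CPM of 0.784 to 0.812 over all regions, against 0.938 to 0.969 within the other 3 groups.

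**Figure D5:**
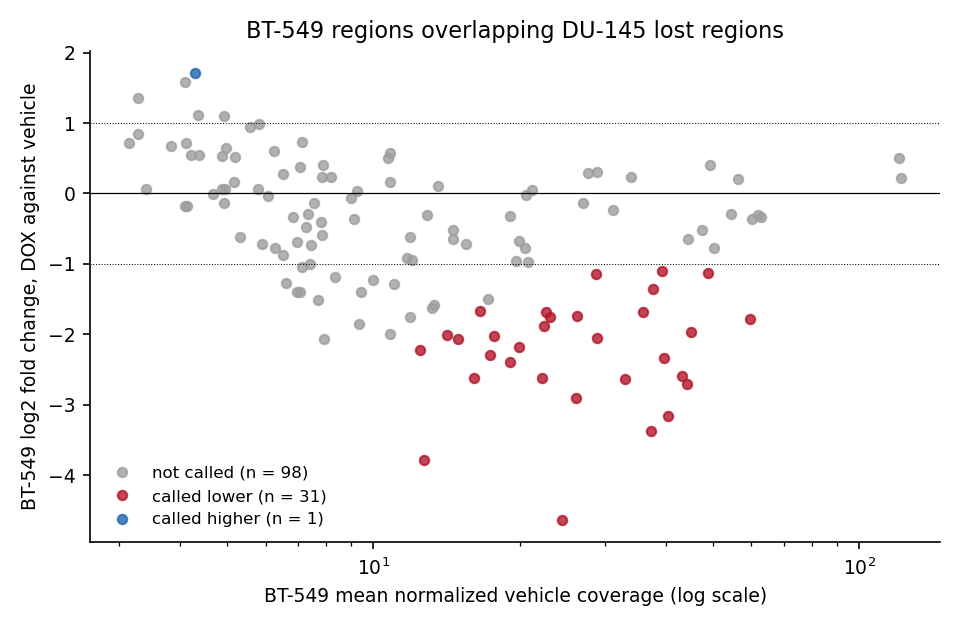
BT-549 log2 fold change (DOX against vehicle) against mean normalized vehicle coverage in BT-549 (log scale) for the 130 BT-549 regions that overlap a DU-145 lost region. Red points were called lower (31) and the blue point higher (1) by edgeR at 2-fold and an adjusted p under 0.01, and dotted lines mark 2-fold. All 31 lower calls lie at a mean vehicle coverage of 12.5 or above.

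The smallest adjusted p belonged to an intergenic region 167250 bp from TMEM232 (chr5:110262701-110263100). BT-549 coverage was 35.6, 40.2 and 45.3 with vehicle and 6.35, 2.82 and 4.71 with DOX. The conditions did not overlap (log2 fold change -3.16 ± 0.42, adjusted p = 5.3e-10). In DU-145 the same region was low, with 10.6, 6.53 and 8.0 against 4.61, 2.51 and 5.12.

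An intron of WLS, which encodes the carrier needed for WNT secretion, was next (chr1:68214801-68215200). BT-549 coverage was 34.4, 36.1 and 41.1 with vehicle and 2.77, 0.819 and 6.08 with DOX (log2 fold change -3.37 ± 0.45, adjusted p = 8.7e-10). DU-145 coverage was 15.2, 19.6 and 16 against 0.601, 0.645 and 0. The fall was steep in both lines.

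In an intron of NCOA6, a coactivator of nuclear receptors, BT-549 coverage was 21.7, 29.7 and 22.1 against 2.16, 1.07 and 0 (log2 fold change -4.64 ± 0.67, adjusted p = 1.3e-08), and DU-145 coverage was 50.5, 59.4 and 57.3 against 10.9, 11.6 and 6.74. Of the 5 calls described with their values it had the highest DU-145 coverage. By C11orf86, coverage in BT-549 was 48.9, 50.2 and 33.7 against 7.05, 7.17 and 4.89 (log2 fold change -2.70 ± 0.37, adjusted p = 1.4e-09). Near NNMT, the gene of nicotinamide N-methyltransferase, it was 32.9, 47.9 and 48.5 against 0.111, 4.07 and 15.1 (log2 fold change -2.59 ± 0.38, adjusted p = 2.8e-08), read at a bin of the BT-549 region that lies outside the lost region. Further calls lay near ACO1, ARPC1B, PTPN1, SCARA5, SYNE2 and MYC, with log2 fold changes of -2.91 to -1.68 in BT-549 and -3.65 to -1.46 in DU-145, and these 6 were named after their values were seen.

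The region called higher in BT-549 lay in an intron of PTP4A3, the gene of the phosphatase PRL-3. At an adjusted p under 0.05 with no fold cutoff 3 of the 130 were higher, against 9.82% of all BT-549 regions. In 10 of the 130 each DOX library lay above each vehicle library, against 7678 of all 46298. In the PTP4A3 intron BT-549 coverage was 4.32, 4.22 and 4.36 with vehicle and 15.0, 7.12 and 17.8 with DOX (log2 fold change 1.71 ± 0.48, edgeR adjusted p = 0.00563). In DU-145 it was 12.6, 9.02 and 12.9 against 6.35, 3.84 and 3.35. Leaving out any BT-549 library other than DOX replicate 2 ended the call, with adjusted p-values of 0.010 to 0.130 (edgeR). The 4 lost regions with the highest BT-549 vehicle coverage, near ID1, PKD1L1, PGRMC2 and ANKRD55, differed by less than 2-fold there, with log2 fold changes of -0.33 to 0.51. Near PKD1L1 the difference had an edgeR adjusted p of 0.000946, and for the others it was 0.256 to 0.304. For the first 3 of these the bin measured lies outside the lost region.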

How the data were processed

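ATAC-seq libraries of DU-145 and BT-549 cells (4 groups of 3, biologically independent per the methods) were grouped by GEO's labels. Fragments were aligned to GRCh38 with bwa-mem and duplicates removed with Picard. The submitters' processing notes name MACS2 2.2.7.1, BWA, Picard and MACS3, and the builds GRCh38 and hg38. In the deposited peak lists, made per replicate at a q-value of 0.05 and not pooled, the authors give a fold enrichment, a -log10 p-value and q-value and an integer score. The deposited bin tables hold estimated counts, the mean fragment coverage that the authors took for each 100-bp bin, with no scaling for depth.

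Members and gene lists were chosen with earlier results of these data known. A region was represented by its bin with the highest mean coverage at equal library totals. The design had assumed whole counts, and the values, which are not whole, were rounded. All regions of a table with a total of at least 10 were fitted with edgeR 4.0.16 (R 4.3.3, quasi-likelihood, robust, TMM, Benjamini-Hochberg adjustment). The SE is the log2 fold change divided by the square root of F. The fit was tested on simulated data, in which a 4-fold fall was found at 23 of 50 regions for DU-145 and at 9 of 50 for BT-549. A 4-fold rise was found at 43 and 41 of 50, 2-fold changes at 2 to 8 of 50, and 0 unaltered regions were called. The simulation gave all libraries the same fixed dispersion, which was not taken from the replicates. It therefore does not measure the rate of false calls in these data. Overlaps (at least 1 bp) used bedtools 2.31.1, and TSSs came from GENCODE release 44. Bases were read from hg38 for all regions, and regions on chromosome 8 or in annotated UTRs were left out of the printed sequences only. Regions named were the 8 with the highest vehicle coverage, the 8 largest falls at coverage of at least 20, the 8 promoters with the highest coverage, up to 5 BT-549 calls per direction and the 4 with the highest BT-549 coverage, those of the 5 genes with most members, 2 per gene list and the 3 widest. Depth is the summed bin coverage, and intervals cover counting error only. At most 1.0% of regions were equal between any pair of replicates. DESeq2 1.42.0, limma 3.58.1 (log2 of CPM plus 1) and other settings were alternatives. Further alternatives were added after seeing the data, namely BT-549 regions beyond 3 kb of a TSS and those with the highest bin inside the member. A motif and a marker gene that were also read are not reported here.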

Additional observations from a re-analysis of the deposited data

Results flagged for a closer look

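At 2 named regions every DU-145 DOX library lay below every vehicle library, whereas every BT-549 DOX library lay above every BT-549 vehicle library. The DU-145 direction follows from the choice of regions, and the difference between the lines was not tested. In the PTP4A3 intron, nearest to the noncoding gene ENSG00000244998, the BT-549 log2 fold change was 1.71. In the PKD1L1 intron near PKD1L1-AS1 it was 0.51 ± 0.12 (edgeR adjusted p = 0.000946), with BT-549 coverage of 123, 124 and 116 against 182, 167 and 168, read at a bin outside the DU-145 region.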

How the results depend on the processing

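The number of lost regions was 1875 to 1899 with stricter peaks or a 50-bp overlap and 1807 with the summit in the region, and leaving out 1 library gave 1882 to 2588. The 1882 without a vehicle library was fixed in advance, since a region had to be detected in at least 3 libraries, and is no sign of stability. The number at least 2-fold lower in DU-145 was 1732 to 1819 under other scalings, DESeq2, summed bins and the replicate block (1774), and 1744 to 1777 without 1 library. Of the BT-549 regions at lost regions 25 to 37 were called lower under RLE factors, library totals, removal of the GC trend, summed bins, no filter, filterByExpr, the replicate block (30) and with the added settings 24 and 25. DESeq2 called 13 of the 93 that it gave an adjusted p (2.48% of all regions tested), and limma-trend called 20 (3.44%). Leaving out 1 library gave 18 to 31 (3.66% to 5.48%), with 18 without DOX replicate 1 (3.82%). With filterByExpr only 60 of the 130 were tested, and 29 were called (10.0%). The share of all regions was 3.52% with the GC trend removed and 7.19% with summed bins. The 1 called higher became 0 with DESeq2, limma-trend, filterByExpr and the replicate block, 2 with the GC trend removed, 3 with summed bins or at an adjusted p under 0.05 with no fold cutoff, and 0 to 1 without 1 library. Over these settings 2.14% to 9.82% of all regions were called higher. For each of these changes the cause was not tested. With protein-coding TSSs only, the median distance was 29458 bp and the share within 1 kb 3.29%. Counting a peak in at least 1 BT-549 vehicle library, the share open in BT-549 was 19.1%. No alternative DU-145 value of a named region changed sign, and no BT-549 call at one changed direction. A change of sign at a BT-549 region without a call was not counted. Of the alternative BT-549 values of named regions 10 lost their call (PTP4A3 and MIRLET7B). The other 169 did not, but they include regions without a call to lose. Of the alternative DU-145 log2 fold changes of named regions 117 moved by more than the SE and 843 did not. Replicate numbers did not pair the samples. The deviations of same-numbered vehicle and DOX libraries from their group means correlated at -0.016 to 0.0521. Those of libraries with other numbers correlated at -0.0539 to 0.037. The replicate block ended no other call at a named region than that at PTP4A3 (edgeR adjusted p = 0.0108). The depth of the BT-549 DOX libraries limits every BT-549 value.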
